A study of Mus musculus with 6 samples.

Results

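Hyaluronan is a very long, unsulfated sugar polymer of the extracellular matrix and of the cell coat. It is made at the plasma membrane by the hyaluronan synthases Has1, Has2 and Has3 from nucleotide sugars and pushed out of the cell as it grows. Hyaluronidases cut it, cells hold and take it up through receptors such as Cd44 and Lyve1, and secreted proteins such as Tnfaip6 and Hapln1 tie it to proteins and proteoglycans. In the bladder it lies in the connective tissue under the epithelium, and it is counted among the glycosaminoglycans of the urothelial surface.

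The genes described here are 9 genes of hyaluronan synthesis (Has1, Has2, Has3), breakdown (Hyal1, Hyal2), reception (Cd44, Lyve1) and matrix assembly (Tnfaip6, Hapln1). Every probe set annotated to 1 of these genes alone was taken, which gave 16 of the 45037 probe sets that are not array controls. They stand for 8 of the 9 genes, because Hyal1 was covered only by probe sets shared with a neighbouring gene. RNA came from bladder epithelial preparations of mice at postnatal day 7, amplified in 2 rounds and hybridised to Affymetrix Mouse Genome arrays. The labels divide the preparations into DsRed-positive cells and DsRed-negative cells, with 3 arrays each, numbered 1, 2 and 5 in both groups. All 6 arrays carry the same labels for the reported gene (B6;129P-Upk1btm1Zhang/J, an allele of the uroplakin gene Upk1b), strain (FVB/N x C57BL/6), male sex and cell type (bladder epithelial cell). The epithelium was loosened with trypsin, dissected from the wall and digested with collagenase-type enzyme blends, and the labels do not say how cells with and without DsRed were parted. Samples were not pooled, but separate animals are not stated, so the p-values speak only of the spread among these samples, which may be technical in part.

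Upk1b had a deposited signal of 48415, 98990.1 and 94871 in DsRed-positive arrays 1, 2 and 5, against 9626, 4515 and 2797 in DsRed-negative arrays 1, 2 and 5. All 10 urothelial marker genes were higher in DsRed-positive cells. Their summed signal was 234323 to 361277 in DsRed-positive arrays and 14594 to 31183 in DsRed-negative arrays. All 8 fibroblast and matrix markers were lower, with sums of 14313 to 27377 in DsRed-positive arrays and 600845 to 1444562 in DsRed-negative arrays. The preparation labelled as DsRed-negative bladder epithelial cells therefore carried the defining transcripts of fibroblasts at high signal. Both arrays numbered 1 went against the label of male sex: Xist had a signal of 30986 on 1427262_at in DsRed-positive array 1 and 27373 in DsRed-negative array 1, and at most 260 on the other 4 arrays. Eif2s3y, a Y-linked gene, had on 1417210_at at most 31.2 on the arrays numbered 1 and at least 3309 on the others. Results are therefore also given without both arrays numbered 1.

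Signals below are the deposited linear intensities, and folds come from the normalized log2 values. The control level of an array was the 95th percentile of its 27 control probe sets for transcripts not spiked in. It lay between 7.41 and 8.03 on the log2 scale and between 106 and 268 in deposited signal. Signals at or below it were treated as having no measured level, and a fold against a group that lay there on all 3 arrays is given as a lower bound.

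DsRed-positive cells had less transcript of the synthases Has1 and Has2, the receptor Cd44 and the hyaluronan-binding proteins Tnfaip6 and Hapln1. The synthase Has3, the hyaluronidase Hyal2 and the receptor Lyve1 did not pass the test. In such bulk samples, fewer cells of a type cannot be told apart from less RNA per cell. Of the 16 probe sets, 12 had a mean signal above the filter on dim probe sets and were tested with limma on all 30175 such probe sets, with Benjamini-Hochberg adjustment and a threshold of 0.05. Among the 16, 8 were lower, none was higher, 4 did not pass and 4 were too dim to be tested. Over all tested probe sets 8.62% were lower and 8.63% were higher. Of the 12 tested, 4 passed the filter only through their DsRed-negative signal, so their count was not independent of the filter. With no filter, limma called 9 of the 16 lower and none higher, with none higher at an unadjusted p under 0.05 either, against 5.49% lower and 5.02% higher of all 45037 probe sets. Without both arrays numbered 1, 6 were lower and none higher, against 4.15% and 3.07% of all tested probe sets, and without both numbered 5, 5 were lower and none higher, against 4.74% and 3.26%.

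**Figure D1:**
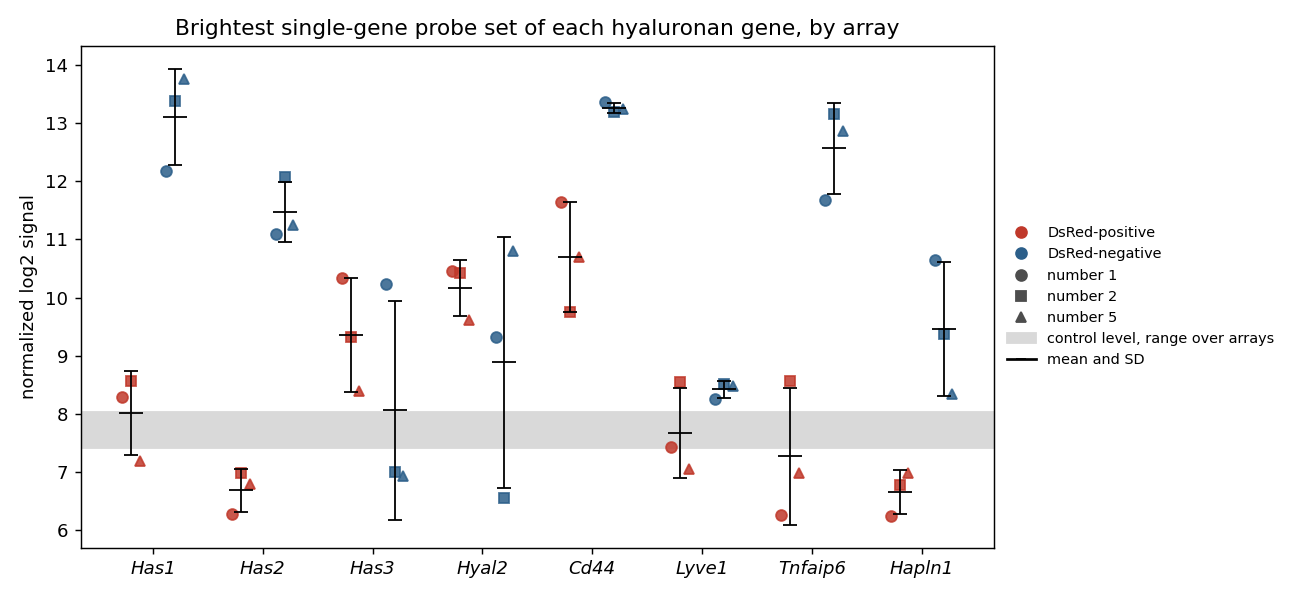
Normalized log2 signal (vertical axis) of the brightest single-gene probe set of each of the 8 genes, with DsRed-positive arrays in red left of DsRed-negative arrays in blue. Marker shapes give the array number, black bars the mean and SD of 3 arrays, and the grey band the range of the control level (7.41 to 8.03). Has1, Has2, Cd44, Tnfaip6 and Hapln1 show no overlap between the groups, while Has3, Hyal2 and Lyve1 do. All DsRed-positive arrays lay below all DsRed-negative arrays for 17.5% of all tested probe sets.

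The promoter windows of Has1, Tnfaip6, Hapln1 and Cd44, 4 of the 5 genes that fell, are printed from RefSeq's table on GRCm38.p6 with that of Hyal2, which did not pass, so that the regulatory sequence of genes lower in the same arrays can be read side by side. Windows were matched for 6 of the 9 genes, the others being Has2, Has3 and Lyve1. Each runs from 250 bases before to 50 bases after the annotated start, 5′ to 3′ on the gene's strand. Capitals mark matches on either strand to a TATA box (TATAAA), a GC box (GGGCGG), an AP-1 motif (TGANTCA) or a C/EBP motif (TTGCNNAA).
Has1, chr17:17855139-17855438, minus strand: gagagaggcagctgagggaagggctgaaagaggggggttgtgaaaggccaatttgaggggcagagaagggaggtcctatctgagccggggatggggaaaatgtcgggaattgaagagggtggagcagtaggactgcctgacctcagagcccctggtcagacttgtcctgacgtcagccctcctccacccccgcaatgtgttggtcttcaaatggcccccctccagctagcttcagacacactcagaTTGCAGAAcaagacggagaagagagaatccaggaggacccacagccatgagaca
Tnfaip6, chr2:52037863-52038162, plus strand: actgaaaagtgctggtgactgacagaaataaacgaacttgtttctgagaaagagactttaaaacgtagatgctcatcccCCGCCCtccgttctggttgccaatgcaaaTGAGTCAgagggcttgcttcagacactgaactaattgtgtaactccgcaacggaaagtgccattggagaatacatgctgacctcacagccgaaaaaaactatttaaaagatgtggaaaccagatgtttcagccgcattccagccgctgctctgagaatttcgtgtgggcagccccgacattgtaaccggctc
Hapln1, chr13:89540386-89540685, plus strand: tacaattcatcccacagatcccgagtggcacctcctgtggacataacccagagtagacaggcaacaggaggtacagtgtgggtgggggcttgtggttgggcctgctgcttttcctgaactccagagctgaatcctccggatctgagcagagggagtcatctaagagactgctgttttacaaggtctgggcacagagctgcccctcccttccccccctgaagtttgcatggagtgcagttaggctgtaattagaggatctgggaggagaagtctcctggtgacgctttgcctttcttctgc
Cd44, chr2:102901616-102901915, minus strand: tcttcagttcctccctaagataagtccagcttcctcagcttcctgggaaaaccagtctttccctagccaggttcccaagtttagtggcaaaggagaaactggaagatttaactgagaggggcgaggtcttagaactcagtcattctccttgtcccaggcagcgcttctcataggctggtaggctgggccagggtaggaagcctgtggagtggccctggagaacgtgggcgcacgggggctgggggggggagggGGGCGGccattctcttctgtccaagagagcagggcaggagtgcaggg
Hyal2, chr9:107568913-107569212, plus strand: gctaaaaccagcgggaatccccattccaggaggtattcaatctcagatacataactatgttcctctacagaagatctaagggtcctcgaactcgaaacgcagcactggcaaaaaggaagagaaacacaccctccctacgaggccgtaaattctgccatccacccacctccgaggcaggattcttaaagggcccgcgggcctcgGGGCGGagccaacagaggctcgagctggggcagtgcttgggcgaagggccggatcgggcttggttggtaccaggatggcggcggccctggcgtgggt
No motif was present in all 4 windows of Has1, Tnfaip6, Hapln1 and Cd44. The Tnfaip6 window held an AP-1 match starting 142 bases before the start, a motif found in 7.81% of all 32851 windows, and a GC box match 171 bases before it. The Has1 window held a C/EBP match starting 4 bases before the start, found in 10.8% of windows. The Cd44 window held a GC box match just after the start and the Hyal2 window held 1 starting 47 bases before it, and 35.7% of all windows held that motif. No match to the 4 motifs was found in the Hapln1 window, and the TATA box letters, present in 13.6% of windows, were in none of the 5. A match describes letters only.

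Has1, the synthase isoform with the least well understood role, had a signal of 207, 276 and 88.7 in DsRed-positive arrays 1, 2 and 5, against 4503, 9919.5 and 13442 in DsRed-negative arrays. Every DsRed-negative array lay above every DsRed-positive array, as held for 17.5% of all tested probe sets. Array 5 held both the lowest DsRed-positive and the highest DsRed-negative value. The normalized log2 signal was 8.02 ± 0.72 in DsRed-positive cells and 13.11 ± 0.82 in DsRed-negative cells (SD, n = 3 each). The log2 change was -5.09 ± 0.55 (SE, limma adjusted p = 9.04e-04), or 34.0-fold lower, with a 95% interval from 14.0-fold to 82.5-fold. DsRed-positive array 5 lay at or below the control level, so the size of the change rests partly on unmeasured signal. The change was -5.65 (adjusted p = 0.0172) when both arrays numbered 1 were left out.

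Has2, the synthase that is essential for heart development in mouse embryos and the main source of hyaluronan in many connective tissues, had 2 probe sets. On the brighter, 1418678_at, the signal was 29.3, 65.0 and 56.9 in DsRed-positive arrays, against 2126, 3967 and 2339 in DsRed-negative arrays. All 3 DsRed-positive values lay at or below the control level, so Has2 had no measured level in DsRed-positive cells on these arrays. The change was -4.78 ± 0.40 (adjusted p = 3.22e-04), at least 15.8-fold lower when set against the control level. The second probe set, 1449169_at, had 41.6, 8.30 and 12.3 in DsRed-positive arrays, against 1053, 1202 and 2775 in DsRed-negative arrays, and was at least 8.57-fold lower (adjusted p = 8.68e-04). Both probe sets thus put Has2 at control level in one group and at high signal in the other. Their changes were -4.75 (adjusted p = 0.0153) and -5.09 (adjusted p = 0.0184) without both arrays numbered 1.

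Has3, a synthase found in many epithelia, did not pass the test. Its signal was 1255, 517 and 266 in DsRed-positive arrays, against 1179.6, 116.5 and 102 in DsRed-negative arrays. All 3 DsRed-positive arrays gave signal above the control level, while only DsRed-negative array 1 did, and the value of that array fell within the DsRed-positive range. The log2 change was 1.29 ± 0.94 (adjusted p = 0.391), with a 95% interval from -0.90 to 3.48, which spans 0 and reaches further up than down. The call turned on 1 array: without DsRed-negative array 1 the change was 2.41 (adjusted p = 0.0452). With both arrays numbered 1 left out it was 1.92 (adjusted p = 0.102).

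The synthases were also set against each other within each array. Probe sets of different genes have no common scale, so the sign of a single such difference has no meaning and only its shift between the groups was read. Has1 minus Has3 was -2.05, -0.76 and -1.19 on the log2 scale in DsRed-positive arrays, against 1.94, 6.37 and 6.83 in DsRed-negative arrays, a shift of -6.38 (DsRed-positive minus DsRed-negative). The groups did not overlap for Has2 minus Has3 either, and they did for Has1 minus Has2. Has3 was at or below the control level in DsRed-negative arrays 2 and 5, Has1 in DsRed-positive array 5 and Has2 in all 3 DsRed-positive arrays, so the sizes of these shifts rest partly on unmeasured signal. Both differences against Has3 gave an exact two-sided permutation p = 0.1 and the last p = 0.8 (0.15 and 0.96 after Benjamini-Hochberg adjustment over 6 within-array comparisons). With 3 arrays against 3, 0.1 is the smallest p that this test can give. No adjusted p passed 0.05.

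**Figure D2:**
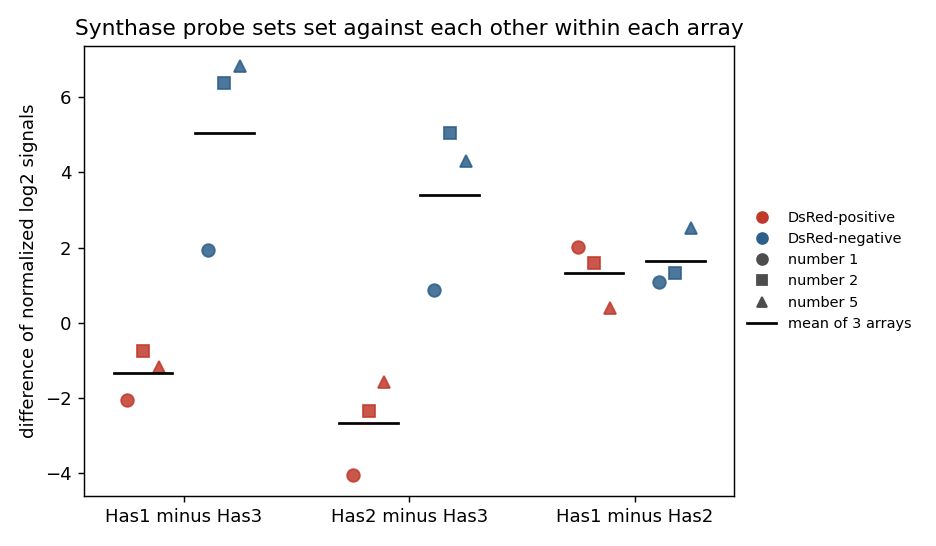
Difference between the normalized log2 signals of synthase probe sets within each array (vertical axis), with DsRed-positive arrays in red left of DsRed-negative arrays in blue and a black line at the mean of 3 arrays. The groups do not overlap for Has1 minus Has3 and Has2 minus Has3 and overlap for Has1 minus Has2, and the sizes rest partly on signals at or below the control level; the height on the axis depends on the probe sets and is not read.

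Hyal2, a hyaluronidase anchored at the cell surface that cuts the polymer into mid-sized fragments, was the enzyme of breakdown with a probe set of its own. Its signal was 1381, 1238 and 724 in DsRed-positive arrays, against 639, 69.2 and 1728.5 in DsRed-negative arrays. The DsRed-positive arrays lay close together, and the DsRed-negative arrays held both the highest and the lowest value of all 6. The log2 change was 1.28 ± 0.97 (adjusted p = 0.415), with a 95% interval from -0.99 to 3.54. DsRed-negative array 2 was at or below the control level and set much of this value: without it the change was 0.11 (adjusted p = 0.916). Without both arrays numbered 1 it was 1.36 (adjusted p = 0.618).

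Cd44, the main cell surface receptor for hyaluronan, is made by basal epithelial cells, fibroblasts and leukocytes alike. On its brightest probe set, 1434376_at, the signal was 3479, 731 and 1612 in DsRed-positive arrays, against 10264, 8696 and 9297.5 in DsRed-negative arrays. The groups did not overlap, as held in this direction for 17.5% of all tested probe sets. Cd44 kept clear signal in every DsRed-positive array, unlike Has2. The normalized log2 signal was 10.70 ± 0.95 in DsRed-positive cells and 13.26 ± 0.09 in DsRed-negative cells (SD, n = 3 each), so nearly all of the spread lay among the DsRed-positive arrays. The change was -2.56 ± 0.50 (adjusted p = 0.0118), or 5.90-fold lower, with a 95% interval from 2.64-fold to 13.2-fold. It held without both arrays numbered 1 (-2.97, adjusted p = 0.0389) but did not pass without both arrays numbered 5 (-2.58, adjusted p = 0.0986).

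The other Cd44 probe sets did not all agree. 1423760_at had 1828, 344 and 2155 in DsRed-positive arrays, against 8417, 8494 and 8529 in DsRed-negative arrays, a change of -2.87 ± 0.59 (adjusted p = 0.0155). It did not pass without both arrays numbered 1 (-3.15, adjusted p = 0.101) or 5 (-3.31, adjusted p = 0.0583). 1452483_a_at had 199.8, 104.4 and 89.3 in DsRed-positive arrays, against 1170.3, 191 and 1689.9 in DsRed-negative arrays, and did not pass (-1.85 ± 0.83, adjusted p = 0.173). Its DsRed-negative array 2 fell within the DsRed-positive range, and without that array the change was -2.91 (adjusted p = 0.00657). 1443265_at was at or below the control level on all 6 arrays, with 13.8 to 98.1 in DsRed-positive arrays and 55.0 to 144 in DsRed-negative arrays. Cd44 is spliced into many forms, and the annotation used here does not say which of them a probe set reads.

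Lyve1, a receptor of the Cd44 type found on lymphatic endothelium and on some tissue macrophages, had signal near the control level. On 1453128_at it had 98.4, 271 and 76.1 in DsRed-positive arrays, against 306, 429 and 377 in DsRed-negative arrays. Each deposited DsRed-negative value was above each DsRed-positive value. After normalization, however, DsRed-positive array 2 (8.55 on the log2 scale) lay above every DsRed-negative array (8.25 to 8.52). The change was -0.75 ± 0.45 (adjusted p = 0.298), with a 95% interval from -1.78 to 0.29, and -0.72 (adjusted p = 0.543) without both arrays numbered 1. With the values as deposited it was -1.25 (adjusted p = 0.0890). 1429379_at was below the filter, with 8.31, 32.6 and 67.6 in DsRed-positive arrays and 261, 155 and 14.7 in DsRed-negative arrays. None of the 4 lymphatic markers tested passed. Prox1 (-1.94, adjusted p = 0.136), Flt4 (-1.83, adjusted p = 0.0525) and Pdpn (-2.03, adjusted p = 0.0532) had negative changes. Reln did not (0.11, adjusted p = 0.947). Their summed signals were 4891 to 16128 in DsRed-positive arrays and 20735 to 43641 in DsRed-negative arrays. Most of this came from Pdpn, which fibroblasts and basal epithelium also make. Of 6 macrophage markers tested, 2 were lower and none higher, with sums of 2656 to 5122 in DsRed-positive arrays and 10359 to 14232 in DsRed-negative arrays. Csf1r gave the largest part of the DsRed-negative sum (5263 to 8558). F13a1 (0.62, adjusted p = 0.682) and Cd163, which was not tested, had higher log2 means in DsRed-positive arrays. The other macrophage genes listed had lower ones.

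Tnfaip6, a secreted protein also called TSG-6 that moves heavy chains from inter-alpha-trypsin inhibitor onto hyaluronan, was lower. Its signal was 28.4, 276 and 71.3 in DsRed-positive arrays, against 3154, 8489 and 7029 in DsRed-negative arrays. Array 2 gave the highest value of each group, and it was the only DsRed-positive array above the control level. The log2 signal was 7.27 ± 1.18 in DsRed-positive cells and 12.56 ± 0.79 in DsRed-negative cells (SD, n = 3 each). The change was -5.29 ± 0.67 (adjusted p = 0.00173), or 39.1-fold lower, with a 95% interval from 13.4-fold to 115-fold. It was -5.19 (adjusted p = 0.0223) without both arrays numbered 1. Since 2 of the 3 DsRed-positive values lay at or below the control level, the fold itself is loosely known.

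Hapln1, the link protein that locks proteoglycans onto hyaluronan, was covered by 4 probe sets. On both that were tested, each DsRed-negative array was higher than any DsRed-positive array, as held for 17.5% of all tested probe sets. 1438020_at had 27.7, 51.8 and 70.1 in DsRed-positive arrays, against 1564, 731 and 338 in DsRed-negative arrays. It was at least 3.90-fold lower (adjusted p = 0.0170), because all DsRed-positive values lay at or below the control level. 1421633_a_at had 80.0, 28.8 and 16.8 in DsRed-positive arrays, against 389, 464 and 718 in DsRed-negative arrays, and was at least 2.62-fold lower (adjusted p = 0.00993).

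The DsRed-negative arrays ranked differently on these Hapln1 probe sets, array 1 being highest on the first and array 5 on the second. The remaining probe sets were below the filter: 1426294_at had 15.8 to 35.7 in DsRed-positive arrays and 204 to 279 in DsRed-negative arrays, and 1426295_at had 1.61 to 5.93 in DsRed-positive arrays and 12.5 to 399 in DsRed-negative arrays, where only array 2 was above the control level. The call of 1438020_at was lost without DsRed-positive array 1 (adjusted p = 0.0741), without DsRed-positive array 2 (0.0546) and without both arrays numbered 1 (0.101) or 2 (0.0828). 1421633_a_at kept its call without any single array, with adjusted p up to 0.0453, and without both arrays numbered 1 (0.0376), but not without both numbered 2 (0.0575) or 5 (0.0893).

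**Figure D3:**
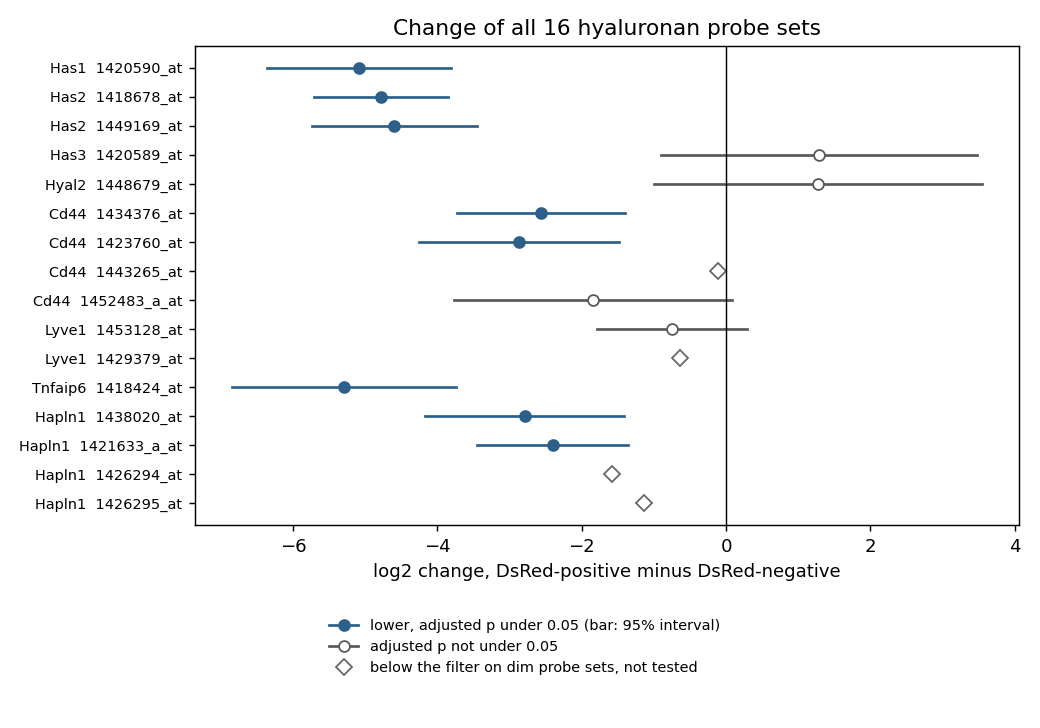
Log2 change, DsRed-positive minus DsRed-negative (horizontal axis), of all 16 hyaluronan probe sets with 95% intervals for the 12 tested. The 8 filled points to the left of 0 passed the adjusted threshold; those of Has3 and Hyal2 lie at 1.29 and 1.28 with intervals that span 0, and open diamonds mark the 4 probe sets too dim to be tested.

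By brightest probe set, 5 of the 8 genes were lower and none was higher, against 11.3% lower and 9.21% higher of 14222 tested genes. Of these 5, Has2 and Hapln1 passed the filter on dim probe sets only through their DsRed-negative signal. The count and the median below were thus not independent of the filter. The median change of the 8 was -2.68, or -2.26 with the 2 bounded genes at their bound, beside a median of 0.04 over all tested genes. Has1, Has2 and Tnfaip6 had fitted changes of -4.78 to -5.29. Cd44 and Hapln1 had fitted changes of -2.56 and -2.79. Within arrays, Cd44 minus Has1 was higher by 2.53 in DsRed-positive than in DsRed-negative arrays, with nearest values of 1.18 in DsRed-positive array 2 and 1.17 in DsRed-negative array 1 (exact permutation p = 0.1, the smallest possible, and 0.15 after adjustment), whereas Tnfaip6 minus Has1 shifted by -0.20 with overlap (p = 1). Has1 was at or below the control level in DsRed-positive array 5, and Tnfaip6 in DsRed-positive arrays 1 and 5. The sizes of both shifts thus rest partly on unmeasured signal.

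Markers of other cells moved with these decreases. Beside the fibroblast list, 4 of 5 tested smooth muscle markers were lower, with summed signals of 1949.5 to 2829.9 in DsRed-positive arrays and 96641 to 187415 in DsRed-negative arrays. Mast cell markers were lower in 2 of 4 cases, with sums of 391 to 576 in DsRed-positive arrays and 19533 to 28659 in DsRed-negative arrays. Nearly all of the DsRed-negative sum came from those 2, Cpa3 (13848 to 23756) and Cma1 (4616 to 5552). Kit (-0.75, adjusted p = 0.369) and Tpsb2 (0.22, adjusted p = 0.863) did not pass, and Mcpt4 was not tested. Other leukocyte markers were lower in 3 of 4 cases, with sums of 323 to 414 in DsRed-positive arrays and 4898 to 7998 in DsRed-negative arrays, and blood endothelial markers in 4 of 5, with sums of 1072 to 1267 in DsRed-positive arrays and 8379 to 12769 in DsRed-negative arrays. Cnn1, Cd3e and Cpa3 were at or below the control level on all DsRed-positive arrays. Of the mesothelial list, Wt1 and Gpm6a were at or below it on all 6 arrays, and the list's 2 tested genes, Msln and Upk3b, were higher; Upk3b is also a urothelial gene, and the summed signal of the list was 36607 to 51997 in DsRed-positive arrays and 1241 to 2352 in DsRed-negative arrays. The part of these cells in the hyaluronan values was not tested.

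Beyond the 9 genes, a wider list of 40 genes of hyaluronan supply, breakdown and binding was read from the same fit. Of these, 39 had a probe set and 33 were tested: 12 were lower, 5 were higher and 16 did not pass, with a median change of -0.30. These shares, on 33 genes, stand beside the 11.3% lower and 9.21% higher of all tested genes. Of the called genes, 4 of the lower (Vcan, Layn, Hapln2, Ptx3) and 2 of the higher (Ambp, Ncan) passed the filter on dim probe sets only through the group where they were high, so these counts were not independent of the filter. The list of breakdown genes held no call in either direction among its 5 tested. Of the 17 calls, 10 were kept in every fit without 1 array that tested the gene, 7 of them lower and 3 higher. Among the 3 higher, Ambp was tested in only 3 of the 6 such fits.

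Among 7 genes that supply the nucleotide sugars, 2 were lower, 1 was higher and 4 did not pass, beside 11.3% lower and 9.21% higher of all tested genes. Gfpt2, an isoform of the enzyme that opens the hexosamine pathway, had 284, 385 and 301 in DsRed-positive arrays, against 4620.1, 19830 and 18931.5 in DsRed-negative arrays, a change of -4.84 ± 0.58 (adjusted p = 0.00140). Its sister Gfpt1 had 29422, 27652.5 and 28599 in DsRed-positive arrays, against 28246, 35239 and 27636 in DsRed-negative arrays, a change of 0.08 ± 0.33 (adjusted p = 0.896). The groups were thus far apart for the first isoform and overlapped for the second. Uap1, which makes UDP-N-acetylglucosamine, was lower (-1.48 ± 0.39, adjusted p = 0.0381), a call kept in 1 of 6 fits without 1 array. Of its 4 tested probe sets, 3 were lower. Gnpnat1, an acetyltransferase of the same pathway, was higher (1.29 ± 0.37, adjusted p = 0.0499), also kept in 1 of 6, and its other tested probe sets did not pass. Neither passed without both arrays numbered 1 (0.161 and 0.0924), while Gfpt2 did (0.0126). Ugdh, which makes UDP-glucuronic acid, had -0.13 (adjusted p = 0.827), with 35375 to 47460 in DsRed-positive arrays and 48799 to 92579 in DsRed-negative arrays. Ugp2 did not pass on its brightest probe set (-0.46, adjusted p = 0.357), while 1 of its 5 tested probe sets was lower (-1.24, adjusted p = 0.0408).

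Breakdown genes did not pass in any case. Cemip2, a cell surface hyaluronidase, had 0.49 (adjusted p = 0.423), Cemip, a hyaluronan-depolymerising protein of fibroblasts, 0.17 (adjusted p = 0.882), the lysosomal hexosaminidase Hexa -0.73 (adjusted p = 0.290) and the glucuronidase Gusb -0.21 (adjusted p = 0.756). Hyal3 and Spam1 were below the filter. Cemip lay at or below the control level on 2 of 3 arrays of each group.

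The proteins that tie the tail of Cd44 to the actin cortex went both ways. Ezrin (Ezr) had 48693, 66338 and 55601 in DsRed-positive arrays, against 6793, 7402 and 3138 in DsRed-negative arrays, a change of 3.66 ± 0.43 (adjusted p = 0.00134). A dimmer Ezr probe set had the opposite sign and did not pass (-1.72 ± 0.54, adjusted p = 0.0710), and the mean of both gave 0.97 (adjusted p = 0.101). Moesin (Msn) had 552, 466 and 745 in DsRed-positive arrays, against 17857, 12024.5 and 13947 in DsRed-negative arrays, a change of -4.45 ± 0.33 (adjusted p = 1.96e-04). Radixin (Rdx) was lower as well (-2.64 ± 0.32, adjusted p = 0.00145). All 3 calls held without both arrays numbered 1, with adjusted p of 0.0305, 0.0151 and 0.0307.

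Hyaluronan-binding proteins and receptors were lower in 6 of 14 tested cases and higher in 1, beside 11.3% and 9.21% of all tested genes. Versican (Vcan), a large proteoglycan that binds hyaluronan, had 253, 9.08 and 21.2 in DsRed-positive arrays, against 39060.0, 15314 and 52834 in DsRed-negative arrays, a change of -8.10 ± 0.79 (adjusted p = 5.83e-04), and 4 of its 5 tested probe sets were lower. Layilin (Layn), a membrane receptor for hyaluronan, was lower (-2.48 ± 0.43, adjusted p = 0.00757), as were the link proteins Hapln3 (-1.65, adjusted p = 0.0189) and Hapln2, at least 2.24-fold (adjusted p = 0.0213). Vcan and Layn each lay at or below the control level on 2 of the 3 DsRed-positive arrays. The sizes of their changes thus rest partly on unmeasured signal. Stab1, a scavenger receptor of macrophages and endothelium (-1.77, adjusted p = 0.0272), and Tlr4, the endotoxin receptor (-2.08, adjusted p = 0.0315), completed the decreases. The other tested Tlr4 probe set did not pass (-1.09 ± 1.27, adjusted p = 0.600). Without 1 array, the call was kept in 1 of 6 fits for Tlr4, 2 of 6 for Hapln2, and 4 of 6 for Stab1 and for Hapln3. Ncan, a brain proteoglycan, was at least 1.55-fold higher (adjusted p = 0.0475), with DsRed-positive signals of 192 to 346 and a call kept in 1 of 6 fits without 1 array. The other tested Ncan probe set did not pass (0.40, adjusted p = 0.616). Hmmr, a hyaluronan-binding protein of the mitotic spindle, had 1.71 ± 0.86 (adjusted p = 0.217), with DsRed-positive array 5 (6201) apart from the other arrays (245 to 1326). Without both arrays numbered 1, Layn, Hapln3, Hapln2, Stab1, Tlr4 and Ncan did not pass, with adjusted p from 0.0504 to 0.134, while Vcan did (0.0118).

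The proteins that act with Tnfaip6 on hyaluronan were divided. Pentraxin 3 (Ptx3), which cross-links the heavy chains, had 57.7, 50.2 and 158 in DsRed-positive arrays, against 5149, 18966 and 7957 in DsRed-negative arrays, a change of -6.08 ± 0.55 (adjusted p = 4.43e-04). Since 2 of the 3 DsRed-positive values lay at or below the control level, the size of this change rests partly on unmeasured signal. The heavy chain relative Itih5 had 2426, 993 and 1943 in DsRed-positive arrays, against 35027, 40632 and 80992 in DsRed-negative arrays, a change of -4.65 ± 0.43 (adjusted p = 4.59e-04), and all 3 of its probe sets were lower. The heavy chain gene Itih2 had 2076, 2158 and 953 in DsRed-positive arrays, against 402, 405 and 261 in DsRed-negative arrays, and was higher (2.33 ± 0.42, adjusted p = 0.00854). Ambp, whose product is cut to give bikunin, the light chain of the inhibitor, was at least 1.40-fold higher (adjusted p = 0.00557), with all DsRed-negative values at or below the control level. Without both arrays numbered 1, Ptx3 (0.0164) and Itih5 (0.0168) passed, and Itih2 (0.0901) and Ambp (0.0706) did not.

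**Figure D4:**
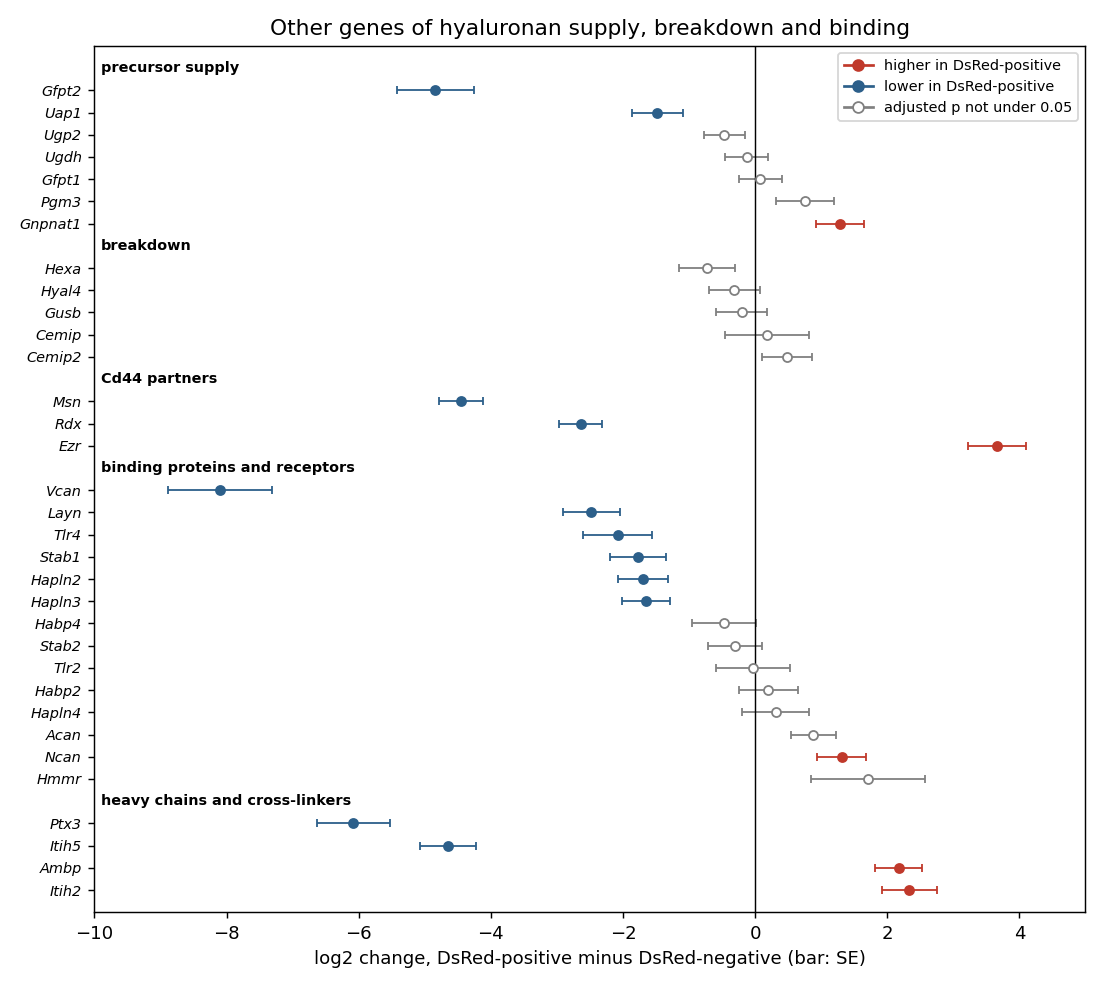
Log2 change, DsRed-positive minus DsRed-negative, with SE (horizontal axis), of the 33 tested genes of the wider list, grouped by role. Red points were higher and blue points lower at the adjusted threshold; Ezr at 3.66 stands opposite Msn at -4.45, and Itih2 at 2.33 opposite Ptx3 at -6.08.

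The profiles most like each gene were found by the root mean square difference between mean-centred log2 profiles over the 6 arrays, among 14221 other genes. Nav1 (0.28) and C1ra (0.31) were nearest to Has1, Edil3 (0.21) and Dpysl3 (0.23) to Has2, and Slc41a2 (0.39) and the smooth muscle gene Tagln (0.40) to Tnfaip6. Cpxm2 (0.30) and Hspa12b (0.32) were nearest to Hapln1. Tyrobp, a signalling adaptor of myeloid cells (0.12), and H2-DMa, a class II antigen-loading gene (0.19), were nearest to Cd44. Il1a (0.13) and Slc11a2 (0.14) were nearest to Lyve1, Bcl11b (0.27) and Snapc4 (0.44) to Has3, and Tbc1d5 (0.22) and Rfesd (0.24) to Hyal2. The median difference over all genes was 0.87 for Lyve1, the lowest, and 2.82 for Tnfaip6, the highest. Has2 and Hapln1 lay at or below the control level on all 3 DsRed-positive arrays and Tnfaip6 on 2. Their likenesses thus rest partly on unmeasured signal. The measure includes the change between the groups, so genes with a similar change lie near each other, and shared expression within cells was not tested.

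**Figure D5:**
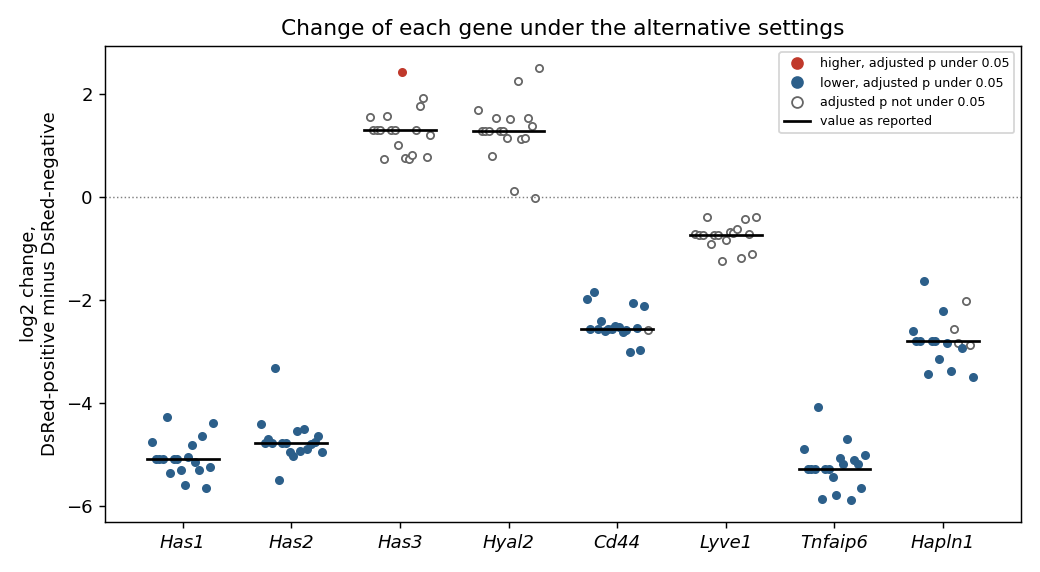
Log2 change, DsRed-positive minus DsRed-negative (vertical axis), of each of the 8 genes under the alternative settings, with a black line at the value as reported. Filled points passed the adjusted threshold: Has1, Has2 and Tnfaip6 stay filled throughout, Has3 passed in 1 setting (2.41), and Hyal2 ranges from -0.019 to 2.51 without passing.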

How the data were processed

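The deposited table gives 1 linear intensity per probe set and array. The submitters' processing notes name GCOS; its settings were not given in the sources used here. Deposited intensities had been scaled by the authors, since every array had a 2% trimmed mean of 1500.01.

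The 20th percentile of the table (39.84) was added as an offset, which compresses changes of dim probe sets, and log2 values were quantile normalized, because array medians spanned 0.74 and the DsRed-positive arrays lay lower by 0.54 on average. Controls (64 probe sets) and probe sets whose mean did not exceed the 33rd percentile (7.18) were left out, and 30175 remained. Symbols were those of the platform annotation, updated by gene ID, with 34945 probe sets naming 1 gene, 932 several and 9160 none here. The brightest probe set by mean stood for a gene. DsRed-positive and DsRed-negative arrays were compared in limma 3.58.1 (R 4.3.3; lmFit, eBayes, two-sided, no block), with Benjamini-Hochberg adjustment over the 30175. This was tested on simulated data, in which only brighter probe sets were changed. Changes of dim probe sets and the normalization were not simulated. The number of arrays limits the precision.

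The 9 genes, the wider list and the markers were chosen with earlier results of these data known. Named are all 9 genes, all called genes of the wider list and others by role, and the 2 profiles most alike. Alternatives were the deposited scaling, median centring, a replicate block, leaving out arrays, other offsets and filters, trend with robust estimation, and averaging a gene's probe sets.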

Additional observations from a re-analysis of the deposited data

How the results depend on the processing

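The hyaluronan probe sets called lower numbered 8 and ranged from 5 to 9 over the fits that left out 1 array or both arrays of a number. The lowest count came without both arrays numbered 5, when the 2 Cd44 and 1 of the 2 Hapln1 probe sets no longer passed. None was called higher except in the fit without DsRed-negative array 1, which called 1, Has3. Has1, Has2 and Tnfaip6 stayed lower under all 18 alternatives, with adjusted p up to 0.0172, 0.0153 and 0.0365. Cd44 did so under 17 of 18 and Hapln1 under 13 of 17. Hyal2 changed sign to -0.019 without both arrays numbered 2 (adjusted p = 0.988). In the wider list, 12 genes were lower, and 6 to 11 when arrays were left out, with 6 without both arrays numbered 1 or 2 and 7 without both numbered 5. The 5 higher were 1 to 5 when arrays were left out, 3 with a filter at the 50th percentile, with no filter and with the values as deposited, 2 with an offset of 1, and 1 when the probe sets of a gene were averaged. Averaging also left 8 genes of the wider list lower. It brought Msn to -1.97, Vcan to -3.16 and Ptx3 to -2.97, all still among them. The causes were not tested.

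Whether the shared numbers pair the arrays was not settled. Deviations from the group means correlated at only 0.15, 0.04 and 0.05 for numbers 1, 2 and 5. Yet each array correlated best with its own number, and both arrays numbered 1 shared high Xist and low Eif2s3y signal. With the number as a replicate block, 8 hyaluronan probe sets were lower and 0 higher, and the wider list had 10 lower and 3 higher.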

Other observations

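Hyal1, a lysosomal hyaluronidase, could not be read alone. The 2 probe sets annotated to it and to Naa80 together did not pass. 1419213_at had 728, 651 and 961 in DsRed-positive arrays, against 832, 992 and 942 in DsRed-negative arrays (log2 change -0.06, adjusted p = 0.919). 1449954_at had 1536, 831 and 385 in DsRed-positive arrays, against 511, 364 and 1576 in DsRed-negative arrays (0.48, adjusted p = 0.686). Which of both genes these signals come from cannot be told apart.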
